A study of Rattus norvegicus with 6 samples.

Results

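Mesangial cell markers were followed as a panel of 10 genes (Pdgfrb, Gata3, Thy1, Serpine2, Fhl2, Cspg4, Rgs5, Ptn, Igfbp5 and Sfrp2) across 6 arrays of rat glomerular isolates. All 10 were found among 14506 named genes, each through 1 probeset that carries its symbol alone, so no choice between probesets was needed. The groups compared were PEC-enriched isolates, which are capsulated glomeruli held back by a 90 µm sieve, and PEC-deprived isolates, which are decapsulated glomeruli collected on a 75 µm sieve (n = 3 arrays each). PEC stands for the parietal epithelial cell that lines Bowman's capsule. All isolates came from male Sprague-Dawley rats with no treatment and no culture, with isolations made from individual rats. The methods give 3 animals for the 6 preparations, and whether arrays of different groups share a rat is not stated. Neither isolate was a sort of cells. Both hold the glomerular tuft, and most preparations also held some glomeruli of the other kind and fragments of tubule. By the study's counts, decapsulated glomeruli were a larger share of PEC-enriched preparations than capsulated ones were of PEC-deprived preparations. That share also varied between the PEC-enriched preparations. Mesangial RNA was thus measured in both groups against a mixture that differed.

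Mesangial cells are the contractile support cells of the glomerular tuft. They sit between the capillary loops, anchor them through the mesangial matrix and share features with pericytes elsewhere. Their recruitment depends on platelet-derived growth factor B made by endothelial cells and on its receptor PDGFR-beta on the mesangial cell. In the rat the surface glycoprotein Thy-1 is so abundant on mesangial cells that antibodies against it are used to cause a mesangial injury. The comparison sets the markers of this tuft cell side by side in isolates richer and poorer in glomeruli that kept Bowman's capsule.

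The deposited values are log2 expression values after RMA, with 1 value per probeset and array, array medians between 6.69 and 6.75 and correlations between arrays of 0.9816 to 0.9937. A log2 fold change is given as the mean of PEC-enriched minus the mean of PEC-deprived arrays, and was tested with limma over all 29215 probesets with Benjamini-Hochberg adjustment at a threshold of 0.01. Levels of different genes are not compared, since probesets differ in brightness. With 3 arrays a group, precision is limited throughout. All 10 markers had a mean level above the median of all probesets, and signal over background was not available.

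Of the 10 markers, 8 averaged lower and 2 higher in PEC-enriched isolates, where 41.8% of all probesets averaged higher. The log2 fold changes ran from -0.64 for Gata3 to 0.45 for Rgs5, with a median of -0.36 against -0.03 over all probesets. No marker passed the threshold in limma (0 of 10, where 0% of all probesets did). The study, with its own test, did report genes as passing an adjusted p under 0.01, and none of the 10 markers is among them. At an unadjusted p under 0.05 limma found 1 of 10, where 10.4% of probesets did. The arrays of the groups failed to overlap for 1 marker, Ptn, which was lower on every PEC-enriched array, and 7.79% of probesets had all PEC-enriched arrays below and 7.24% all above. Among the 14506 named genes, 6501 averaged higher in PEC-enriched isolates. At an unadjusted p under 0.05 in limma 1154 of them were higher and 819 lower. All PEC-enriched arrays lay above for 1404 of them and below for 1306. The marker counts at that p and without overlap are close to the shares of all probesets and are no result about the panel. In bulk RNA, fewer mesangial cells, less RNA per mesangial cell and a larger share of RNA from other cells cannot be told apart.

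**Figure D1:**
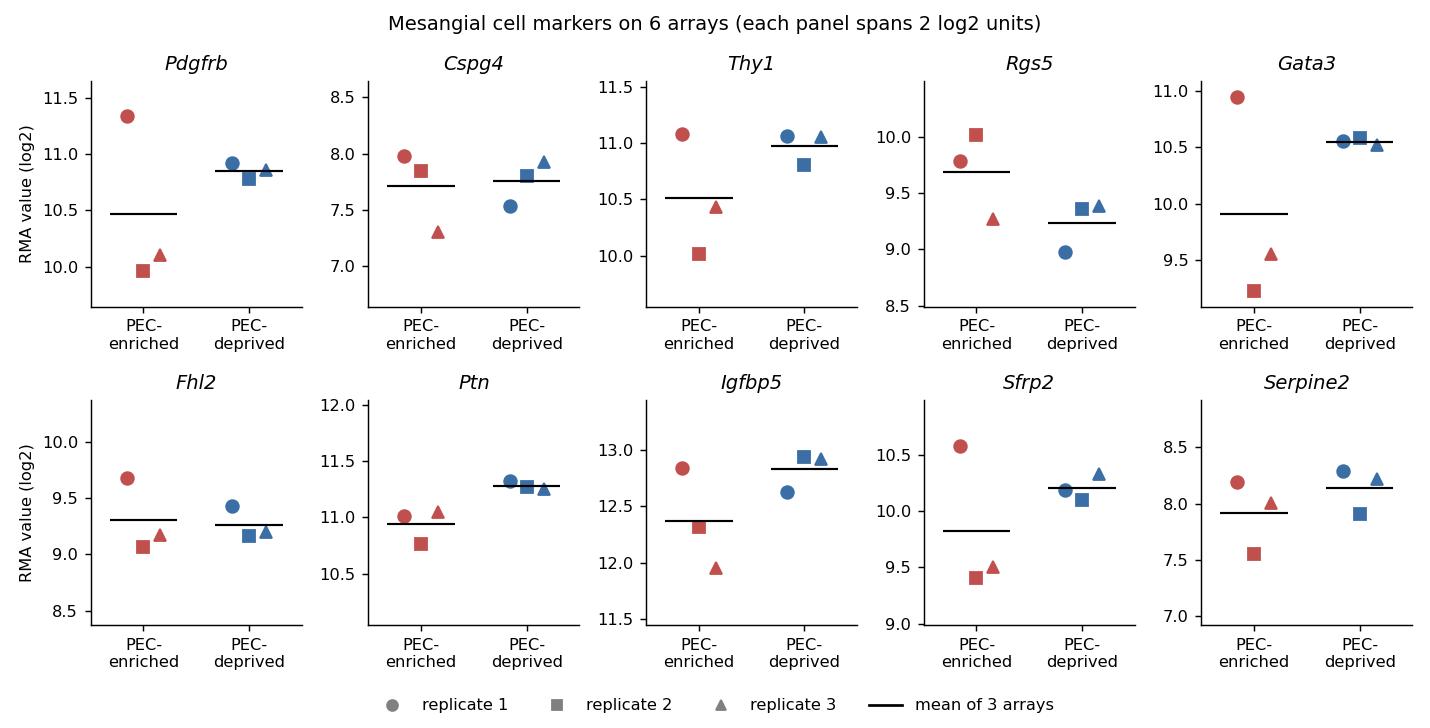
RMA log2 value (y axis) of each of the 10 mesangial cell markers on 3 PEC-enriched and 3 PEC-deprived arrays (x axis), each point 1 array with its shape giving the replicate number and each line the mean of 3 arrays. PEC-enriched replicate 1 lies above all PEC-deprived arrays for 7 of the 10 genes, and the PEC-deprived points sit closer together than the PEC-enriched points in every panel.

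Among the receptors and surface proteins, Pdgfrb encodes PDGFR-beta itself. Its log2 values were 11.33, 9.96 and 10.10 in PEC-enriched replicates 1 to 3, against 10.92, 10.78 and 10.86 in PEC-deprived replicates 1 to 3. PEC-enriched replicate 1 was the highest of the 6 arrays and the other PEC-enriched arrays were the lowest. PEC-enriched arrays averaged 10.47 ± 0.756 and PEC-deprived arrays 10.85 ± 0.0691 (SD, n = 3 each), with a log2 fold change of -0.39 (95% interval -1.12 to 0.35, limma adjusted p = 0.785). Without PEC-enriched replicate 1 the log2 fold change was -0.82, and without PEC-enriched replicate 2 it was -0.13.

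Thy1, the Thy-1 antigen, had the same arrangement of low arrays. It measured 11.08, 10.02 and 10.43 in PEC-enriched isolates, against 11.06, 10.80 and 11.05 in PEC-deprived isolates. PEC-enriched replicates 2 and 3 lay below every PEC-deprived array, and PEC-enriched replicate 1 lay 0.109 above the PEC-deprived mean. The log2 fold change of -0.46 (95% interval -1.01 to 0.09, limma adjusted p = 0.593) corresponds to 0.727-fold, and its interval includes no change. It was -0.74 without PEC-enriched replicate 1 and -0.21 without PEC-enriched replicate 2. Of the named genes 6% had a larger absolute log2 fold change than Thy1.

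Cspg4 encodes NG2, a proteoglycan of pericytes and mesangial cells. It measured 7.98, 7.84 and 7.31 in PEC-enriched isolates, against 7.54, 7.80 and 7.92 in PEC-deprived isolates. The groups overlapped across most of their ranges and the low array was PEC-enriched replicate 3, which differs from Pdgfrb and Thy1. The log2 fold change was -0.04 (95% interval -0.47 to 0.38, limma adjusted p = 0.971), and its sign changed when PEC-enriched replicate 3 (0.16) or PEC-deprived replicate 3 (0.04) was left out.

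Rgs5 was the member with the highest log2 fold change. It encodes a GTPase-activating protein that dampens G protein signals in pericytes and in arterial smooth muscle. Its values were 9.79, 10.01 and 9.27 in PEC-enriched isolates, against 8.97, 9.36 and 9.38 in PEC-deprived isolates. PEC-enriched replicates 1 and 2 were above all PEC-deprived arrays and replicate 3 was within their range. PEC-enriched arrays averaged 9.69 ± 0.380 and PEC-deprived arrays 9.24 ± 0.229 (SD, n = 3 each), giving a log2 fold change of 0.45 (95% interval -0.00282 to 0.91, limma adjusted p = 0.484). It was 0.29 without PEC-enriched replicate 2 and 0.66 without PEC-enriched replicate 3, the only left-out array under which the groups failed to overlap upward for a marker (1 of 10, where 12.2% of probesets did). With any other array left out the count upward was 0, where 9.92% to 12.8% of probesets had all PEC-enriched arrays above.

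The smooth muscle genes with the largest differences, out of a list whose median was near 0, are given beside Rgs5. Myh11, the smooth muscle myosin heavy chain, measured 7.60, 8.29 and 7.75 in PEC-enriched isolates, against 7.16, 7.01 and 6.98 in PEC-deprived isolates. Tagln, a smooth muscle actin-binding protein, measured 8.01, 8.61 and 8.22 in PEC-enriched isolates, against 7.66, 7.57 and 7.45 in PEC-deprived isolates. In Rgs5, Myh11 and Tagln alike PEC-enriched replicate 2 was the highest of the 6 arrays, as it was for 20% of all probesets. It was also the highest array for the parietal epithelial and proximal tubule lists, at means of 0.625 and 0.925 after each gene was centred. Over the whole list of 12 measured smooth muscle and renin cell genes, 7 averaged higher and 5 lower, the median log2 fold change was 0.02 and the mean level ran from 7.54 to 7.63 in PEC-enriched and from 7.42 to 7.53 in PEC-deprived isolates. The part of these cells in the Rgs5 value was not tested.

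Of the nuclear members, Gata3 had the lowest log2 fold change of the panel. GATA3 is a zinc finger transcription factor that mesangial cells need, and it also marks the collecting duct. It measured 10.95, 9.23 and 9.55 in PEC-enriched isolates, against 10.55, 10.58 and 10.52 in PEC-deprived isolates. PEC-enriched replicate 1 was the highest array and PEC-enriched replicates 2 and 3 were 1.32 and 1.00 below the PEC-deprived mean on the log2 scale, while the PEC-deprived arrays spanned 0.0637. PEC-enriched arrays averaged 9.91 ± 0.912 and PEC-deprived arrays 10.55 ± 0.0319 (SD, n = 3 each), and the log2 fold change was -0.64 (95% interval -1.51 to 0.23, limma adjusted p = 0.663). Without PEC-enriched replicate 1 it was -1.16 and without PEC-enriched replicate 2 it was -0.30. On the same arrays 13 of 15 measured distal tubule and collecting duct genes averaged higher in PEC-enriched isolates, with mean levels of 6.85 to 7.01 in PEC-enriched and 5.97 to 6.53 in PEC-deprived isolates. The part of that segment in the Gata3 value was not tested.

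Fhl2 encodes a LIM domain coactivator that links actin and adhesion signals to transcription. It measured 9.68, 9.07 and 9.17 in PEC-enriched isolates, against 9.43, 9.17 and 9.20 in PEC-deprived isolates. The ranges overlapped and replicate 1 was the highest array in each group. The log2 fold change was 0.04 (95% interval -0.34 to 0.42, limma adjusted p = 0.968), and it changed sign without PEC-enriched replicate 1 (-0.14) or PEC-deprived replicate 2 (-0.01).

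Promoter sequence is shown for Gata3, Sfrp2 and Fhl2. The PEC-enriched arrays of Gata3 and Sfrp2 stood in the same order, which Pdgfrb, Thy1, Serpine2 and Fhl2 shared. The windows of Fhl2 hold the searched motif that is rarest over all genes. In the RefSeq promoter windows of GRCr8, 8 of the 10 markers were matched, with 9 windows in all since Fhl2 has 2. The 250 bases before each annotated start were searched on both strands for the GC box GGGCGG, for the TATA box with the letters TATAAA, for a GATA motif with the letters AGATAA and for the CArG box, the site of serum response factor. The 200 bases before the start are shown 5′ to 3′ for these 3 genes, with every motif match in capitals. Sfrp2 has no match in the stretch shown. The Gata3 window lies inside the annotated span of its gene (chr17:73544234-73575670), before a start within that span. The downstream window of Fhl2 likewise lies inside its gene.
Gata3, GRCr8 chr17:73553348-73553547, plus strand: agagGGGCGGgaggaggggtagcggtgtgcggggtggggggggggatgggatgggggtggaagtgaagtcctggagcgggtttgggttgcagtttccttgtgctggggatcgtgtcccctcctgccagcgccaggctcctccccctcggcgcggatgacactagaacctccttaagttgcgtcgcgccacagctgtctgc
Sfrp2, GRCr8 chr2:171387336-171387535, plus strand: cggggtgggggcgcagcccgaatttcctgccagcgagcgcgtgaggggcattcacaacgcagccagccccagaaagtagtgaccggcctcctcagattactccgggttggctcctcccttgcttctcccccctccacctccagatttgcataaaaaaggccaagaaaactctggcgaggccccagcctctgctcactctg
Fhl2, GRCr8 chr9:52954541-52954740, minus strand: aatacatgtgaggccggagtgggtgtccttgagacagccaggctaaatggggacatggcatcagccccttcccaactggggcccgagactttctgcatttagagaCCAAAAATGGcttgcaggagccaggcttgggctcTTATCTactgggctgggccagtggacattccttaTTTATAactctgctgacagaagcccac
Fhl2, GRCr8 chr9:52923327-52923526, minus strand: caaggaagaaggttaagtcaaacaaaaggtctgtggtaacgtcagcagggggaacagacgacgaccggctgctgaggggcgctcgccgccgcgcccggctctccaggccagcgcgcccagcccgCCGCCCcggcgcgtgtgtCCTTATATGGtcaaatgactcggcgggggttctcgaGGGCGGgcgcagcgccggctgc

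GGGCGG stood in 6 of the 9 marker windows (Cspg4, Fhl2, Gata3, Ptn, Rgs5 and Serpine2), against 30.5% of 33469 windows over all genes. A CArG box stood in 2 of the 9, both of Fhl2, against 1.5% of all windows. TATAAA and AGATAA each stood in 1 of the 9, the upstream window of Fhl2, against 12.9% and 10.3% of all windows. The letters TTATCT and TTTATA in that window are AGATAA and TATAAA read on the other strand. CCGCCC in the other window is GGGCGG in the same way, and no matches overlap in the stretches shown. The GC content of the 250 bases ran from 51.6% for Igfbp5 to 76.8% for Serpine2, where the median of all windows was 51.2%. These are matches of letters and not measured sites.

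Of the secreted members, Ptn was the marker with the smallest p. It encodes pleiotrophin, a heparin-binding growth factor of stromal cells. It measured 11.01, 10.77 and 11.04 in PEC-enriched isolates, against 11.32, 11.27 and 11.25 in PEC-deprived isolates. Every PEC-enriched array was below every PEC-deprived array. PEC-enriched arrays averaged 10.94 ± 0.152 and PEC-deprived arrays 11.28 ± 0.0381 (SD, n = 3 each), giving a log2 fold change of -0.34 or 0.791-fold (95% interval -0.58 to -0.10, limma adjusted p = 0.311). With single arrays left out the log2 fold change ran from -0.39 to -0.25, the narrowest such range of the panel.

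Igfbp5 encodes a binding protein that holds insulin-like growth factors in the matrix. It measured 12.84, 12.32 and 11.96 in PEC-enriched isolates, against 12.63, 12.94 and 12.92 in PEC-deprived isolates. PEC-enriched replicates 2 and 3 were below all PEC-deprived arrays and PEC-enriched replicate 1 was within their range. The log2 fold change was -0.46 (95% interval -0.94 to 0.03, limma adjusted p = 0.513). It was -0.69 without PEC-enriched replicate 1 and -0.25 without PEC-enriched replicate 3.

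Sfrp2, a secreted antagonist of Wnt ligands, had its PEC-enriched arrays in the same order as Pdgfrb. It measured 10.57, 9.40 and 9.50 in PEC-enriched isolates, against 10.18, 10.09 and 10.33 in PEC-deprived isolates. PEC-enriched replicate 1 was again the highest array and PEC-enriched replicates 2 and 3 the lowest. The log2 fold change was -0.38 (95% interval -1.02 to 0.27, limma adjusted p = 0.755), with -0.75 when PEC-enriched replicate 1 was left out and -0.16 when PEC-enriched replicate 2 was.

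Serpine2 encodes protease nexin 1, an inhibitor of thrombin and plasminogen activators that mesangial cells secrete. It measured 8.19, 7.56 and 8.01 in PEC-enriched isolates, against 8.29, 7.91 and 8.21 in PEC-deprived isolates. Replicate 2 was the lowest array of each group and the groups overlapped. The log2 fold change was -0.22 (95% interval -0.62 to 0.19, limma adjusted p = 0.776). Without PEC-enriched replicate 1 it was -0.35, without PEC-deprived replicate 2 -0.33, without PEC-deprived replicate 1 -0.14 and without PEC-enriched replicate 2 -0.04.

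**Figure D2:**
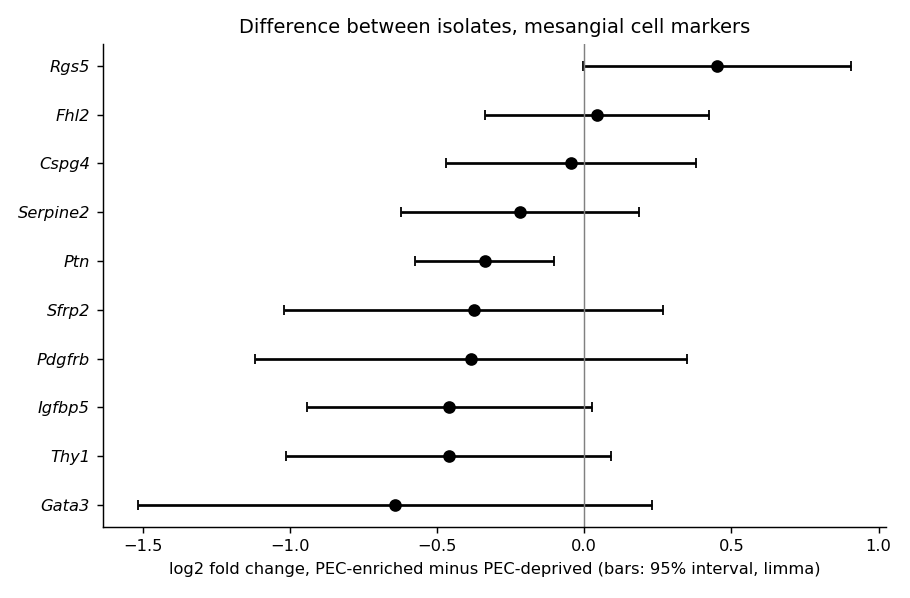
Log2 fold change (x axis, PEC-enriched minus PEC-deprived) of each of the 10 mesangial cell markers (y axis), with points for limma estimates and bars for 95% intervals from 3 arrays per group. The interval of Ptn (-0.58 to -0.10) is the only one of the 10 that leaves out 0, and it is not adjusted for the number of probesets.

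The panel also differed between the isolates in its spread. The SD among PEC-enriched arrays was above the SD among PEC-deprived arrays for all 10 markers, as it was for 56.6% of all probesets. It exceeded 0.3 for 9 of the 10 in PEC-enriched isolates and for 0 of the 10 in PEC-deprived isolates, against 9.38% and 7.91% of all probesets. The distance between the highest and the lowest array ran from 0.277 to 1.72 over the markers in PEC-enriched isolates and from 0.0637 to 0.41 in PEC-deprived isolates. A wider spread of the PEC-enriched arrays was not particular to the panel. The endothelial list had mean levels of 10.49 to 11 in PEC-enriched and 11.09 to 11.18 in PEC-deprived isolates. For the podocyte list these were 11.31 to 11.7 and 11.5 to 11.59. The proximal tubule and thick ascending limb lists had the wider range in PEC-deprived isolates. No test of the spread was made, since the markers share the same 6 arrays.

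The same arrays stood apart for several markers. PEC-enriched replicate 1 was above all PEC-deprived arrays for 7 of the 10 markers, where 22.9% of all probesets had it there. PEC-enriched replicate 2 was below all PEC-deprived arrays for 8 of the 10 (36.4% of probesets) and PEC-enriched replicate 3 for 7 of the 10 (27.8%). Replicates 2 and 3 were both below and replicate 1 was not for 5 markers, Pdgfrb, Thy1, Gata3, Igfbp5 and Sfrp2, an arrangement that 7.17% of all probesets had. Averaged over the panel after each gene was centred on its mean, the arrays stood at 0.356, -0.369 and -0.351 in PEC-enriched replicates 1 to 3, against 0.103, 0.0832 and 0.178 in PEC-deprived replicates 1 to 3. The PEC-deprived arrays thus lie between PEC-enriched replicate 1 and the other PEC-enriched arrays.

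**Figure D3:**
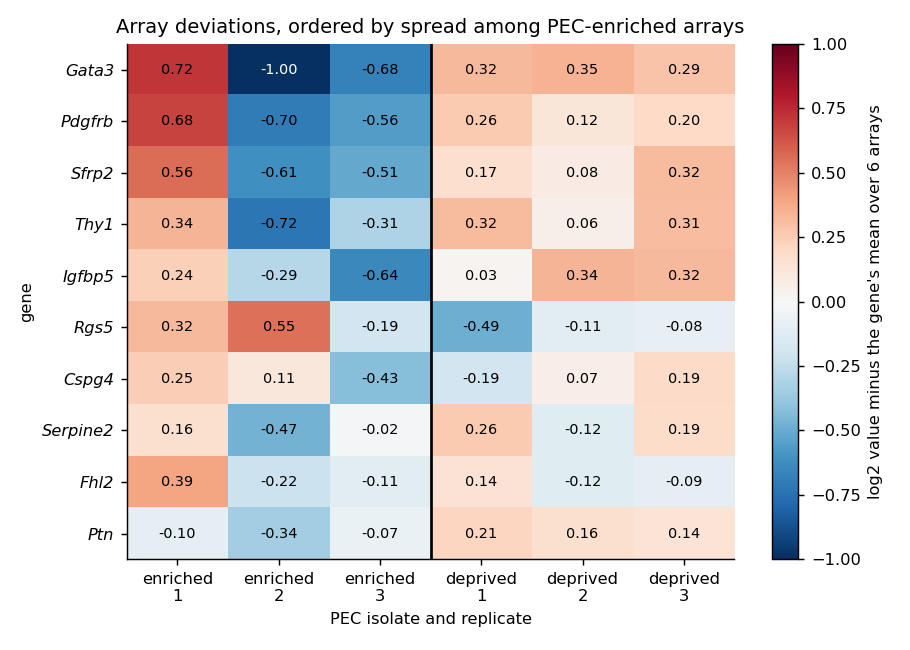
Log2 value of each marker minus its mean over 6 arrays (colour and printed number), with genes in rows ordered by their spread among PEC-enriched arrays and arrays in columns, PEC-enriched left of the black line. PEC-enriched replicate 1 is positive for 9 of the 10 genes, and the range of values is widest in the rows of Gata3, Pdgfrb and Sfrp2.

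The values of the panel depended on single arrays. Without PEC-enriched replicate 1, 6 of the 10 markers were lower with no overlap between the groups (Pdgfrb, Gata3, Thy1, Ptn, Igfbp5 and Sfrp2), where 15% of probesets then were, and the median log2 fold change was -0.53. The same 6 then had an unadjusted p under 0.05 in limma, where 6.01% of probesets had a lower mean at that p, and 0 passed the threshold, with a smallest adjusted p of 0.0712, shared by Pdgfrb, Gata3 and Sfrp2. Without PEC-enriched replicate 2 the median was -0.15 and the count with no overlap was 1 (11.5% of probesets). Without PEC-deprived replicate 1 or 2 it was 2 (14.4% and 12.6% of probesets). The number of markers with a higher mean was 1 without PEC-enriched replicate 1 or PEC-deprived replicate 2 and 3 without PEC-enriched replicate 3 or PEC-deprived replicate 3. The labels give no reason to leave out any array.

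Markers of other cells varied over the same arrays. Of 14 measured endothelial markers 14 averaged lower in PEC-enriched isolates (median log2 fold change -0.46), and 12 had an unadjusted p under 0.05 in limma (4.66% of probesets were lower at that p). Their mean level ran from 10.49 to 11 in PEC-enriched and from 11.09 to 11.18 in PEC-deprived isolates. Centred, the endothelial list stood at 0.0968, -0.398 and -0.413 in PEC-enriched replicates 1 to 3, against 0.184, 0.274 and 0.256 in PEC-deprived replicates 1 to 3. PEC-enriched replicates 2 and 3 were thus the low arrays for both lists, while PEC-enriched replicate 1 was the highest array for the mesangial panel and not for the endothelial list. Erg, an endothelial transcription factor, measured 9.70, 9.25 and 9.26 in PEC-enriched isolates, against 10.09, 10.38 and 10.37 in PEC-deprived isolates.

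Leukocyte markers, 15 of 16 of which averaged lower (median -0.31), stood at 0.156, -0.415 and -0.197 in PEC-enriched replicates 1 to 3, against 0.135, 0.0483 and 0.273 in PEC-deprived replicates 1 to 3. Their mean level ran from 6.85 to 7.42 in PEC-enriched and from 7.32 to 7.54 in PEC-deprived isolates. Podocyte markers were lowest on PEC-enriched replicate 1, at -0.241, 0.109 and 0.149 in PEC-enriched replicates 1 to 3, against -0.051, -0.00877 and 0.0425 in PEC-deprived replicates 1 to 3. The 10 measured podocyte genes split into 5 above and 5 below zero difference (median 0.02), with mean levels of 11.31 to 11.70 in PEC-enriched and 11.50 to 11.59 in PEC-deprived isolates. Interstitial fibroblast genes had a median of -0.07 over 12, with levels of 6.60 to 6.69 in PEC-enriched and 6.48 to 6.74 in PEC-deprived isolates.

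Genes of the parietal and tubular epithelia averaged higher in PEC-enriched isolates. The median log2 fold changes were 0.65 for 11 parietal epithelial genes, 1.05 for 13 proximal tubule genes and 1.45 for 9 thick ascending limb genes, and each of these genes averaged higher there. Centred, the proximal tubule list stood at 0.322, 0.925 and 0.28 in PEC-enriched replicates 1 to 3. In PEC-deprived replicates 1 to 3 it stood at 0.208, -1.19 and -0.551. PEC-deprived replicate 1 was thus close to PEC-enriched replicates 1 and 3 for that list. RMA scales every array to the same distribution, so each value is relative to the other probesets of its array. The part of endothelial, leukocyte and epithelial RNA in the values of the mesangial panel was not tested.

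**Figure D4:**
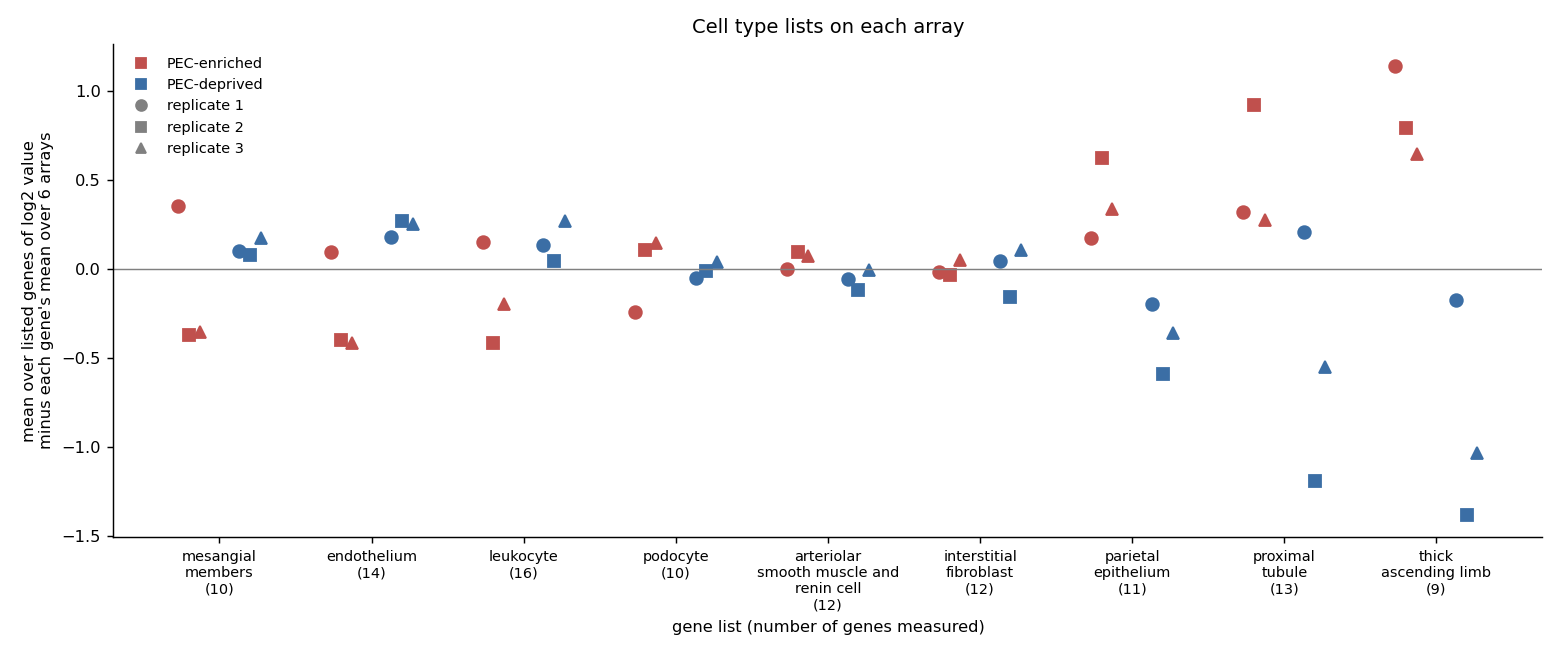
Mean over the genes of each cell type list of the log2 value minus each gene's mean over 6 arrays (y axis), for 9 lists (x axis, with the number of genes measured), each point 1 array coloured by isolate and shaped by replicate. The mesangial, endothelial and leukocyte lists each have PEC-enriched replicates 2 and 3 lowest, and the podocyte list has PEC-enriched replicate 1 lowest, at -0.241.

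A further 18 genes known from mesangial cells and pericytes were listed, and 15 were measured. Of these 10 averaged lower and 5 higher (median log2 fold change -0.05), and 0 passed the threshold in limma, with 1 lower and 2 higher at an unadjusted p under 0.05 (4.66% and 5.77% of probesets). The lowest was Mcam, an adhesion molecule of pericytes and endothelium, at -0.50 (limma adjusted p = 0.524). The highest was Anpep, at 1.16 (limma adjusted p = 0.216), which is also abundant in the brush border of the proximal tubule. Their centred mean stood at 0.13, -0.0881 and -0.0826 in PEC-enriched replicates 1 to 3, against 0.0405, -0.0544 and 0.0548 in PEC-deprived replicates 1 to 3, which is the order of the panel within the PEC-enriched isolates at a smaller size.

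Profiles across the 6 arrays were compared for the markers with the largest absolute log2 fold changes, Gata3 and Thy1, by the mean absolute difference between gene-centred log2 values over 14496 other genes. The genes closest to Gata3 were Vegfd, a lymphatic growth factor, at 0.161, Notch3, a Notch receptor of mural cells, at 0.167 and Gfra2, a receptor of the GDNF family, at 0.18, where the median gene was at 0.554. Notch3 measured 9.66, 8.50 and 8.49 in PEC-enriched isolates, against 9.27, 9.33 and 9.49 in PEC-deprived isolates. It has the high PEC-enriched replicate 1 and the low PEC-enriched replicates 2 and 3 of Gata3. The genes closest to Thy1 were Cd68 at 0.033, Cyth4 at 0.0424 and C1qa at 0.0601, where the median gene was at 0.346. Cd68 and C1qa are macrophage genes and stand in the leukocyte list. Cd68 measured 7.64, 6.64 and 6.93 in PEC-enriched isolates, against 7.61, 7.31 and 7.62 in PEC-deprived isolates, and each array deviates from the gene's mean nearly as it does for Thy1.

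Partners and relatives of the markers were taken from 7 lists, with 63 of 67 genes outside the panel measured. Of the 63, 27 averaged higher and 36 lower, and 0 passed the threshold in limma, with 7 higher and 8 lower at an unadjusted p under 0.05 (5.77% and 4.66% of probesets). The median log2 fold change was -0.03, as over all probesets.

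For the PDGF pathway, Pdgfb, the endothelial ligand of PDGFR-beta, averaged 10.14 on PEC-enriched arrays and 10.42 on PEC-deprived arrays, a log2 fold change of -0.29 (95% interval -0.49 to -0.08, limma adjusted p = 0.322). Pdgfd, the other ligand of that receptor, stood at -0.11 and the sister receptor Pdgfra, a fibroblast marker, at 0.14 (limma adjusted p = 0.803 and 0.742). Pdgfc, a ligand of PDGFR-alpha, averaged 7.89 on PEC-enriched arrays and 6.78 on PEC-deprived arrays, a log2 fold change of 1.11 (95% interval 0.73 to 1.48, limma adjusted p = 0.152). Of the 11 genes of this list outside the panel 8 had a lower mean, among them Pdgfb and Nrp1, the receptor neuropilin 1, at -0.40 (limma adjusted p = 0.45).

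For pleiotrophin, its relative Mdk (midkine) stood at 0.26 (95% interval -0.01 to 0.53, limma adjusted p = 0.503), opposite in sign to Ptn. Sdc3, a heparan sulphate proteoglycan that binds pleiotrophin, stood at -0.55 and Ptprz1, its receptor phosphatase, at -0.49 (limma adjusted p = 0.31 and 0.626). Of the 12 measured genes of the insulin-like growth factor list outside the panel 9 had a higher mean. The other binding proteins lay between -0.13 for Igfbp4 and 0.24 for Igfbp2, and Igfbp5 at -0.46 was the lowest of the 7 binding proteins measured. The lowest of the whole list was Stc1, a glycoprotein that blocks a protease of binding proteins, at -0.66 (limma adjusted p = 0.565).

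Among the secreted frizzled-related proteins, Sfrp2 was the only one with a lower mean. Sfrp1 stood at 0.50 (95% interval 0.09 to 0.92, limma adjusted p = 0.372), Frzb at 0.27, Sfrp5 at 0.18 and Sfrp4 at 0.06, against -0.38 for Sfrp2. Of the 8 measured regulators of the R4 family Rgs5 had the highest log2 fold change. Rgs3 stood at -0.30, Rgs2 at -0.18 and Rgs4 at -0.11, and Rgs18, a regulator of platelets and myeloid cells, at -0.34. In the list of proteases that protease nexin 1 acts beside, Plau, the urokinase plasminogen activator, averaged 9.84 on PEC-enriched arrays and 8.07 on PEC-deprived arrays, a log2 fold change of 1.77 (95% interval 0.98 to 2.57, limma adjusted p = 0.166). Plaur, its receptor, stood at -0.41 (95% interval -0.65 to -0.18, limma adjusted p = 0.228).

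Among the relatives of Gata3, Gata5 averaged 10.01 on PEC-enriched arrays and 10.67 on PEC-deprived arrays, a log2 fold change of -0.66 (95% interval -1.10 to -0.22, limma adjusted p = 0.297). Gata2, a factor of endothelium, stood at -0.51 (95% interval -0.76 to -0.26, limma adjusted p = 0.182), while Gata4 stood at -0.21 and Gata6 at 0.16. Of the LIM-only relatives of Fhl2, Fhl3 stood at -0.46 and Fhl1 at -0.29, and Fhl5 at 0.25.

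**Figure D5:**
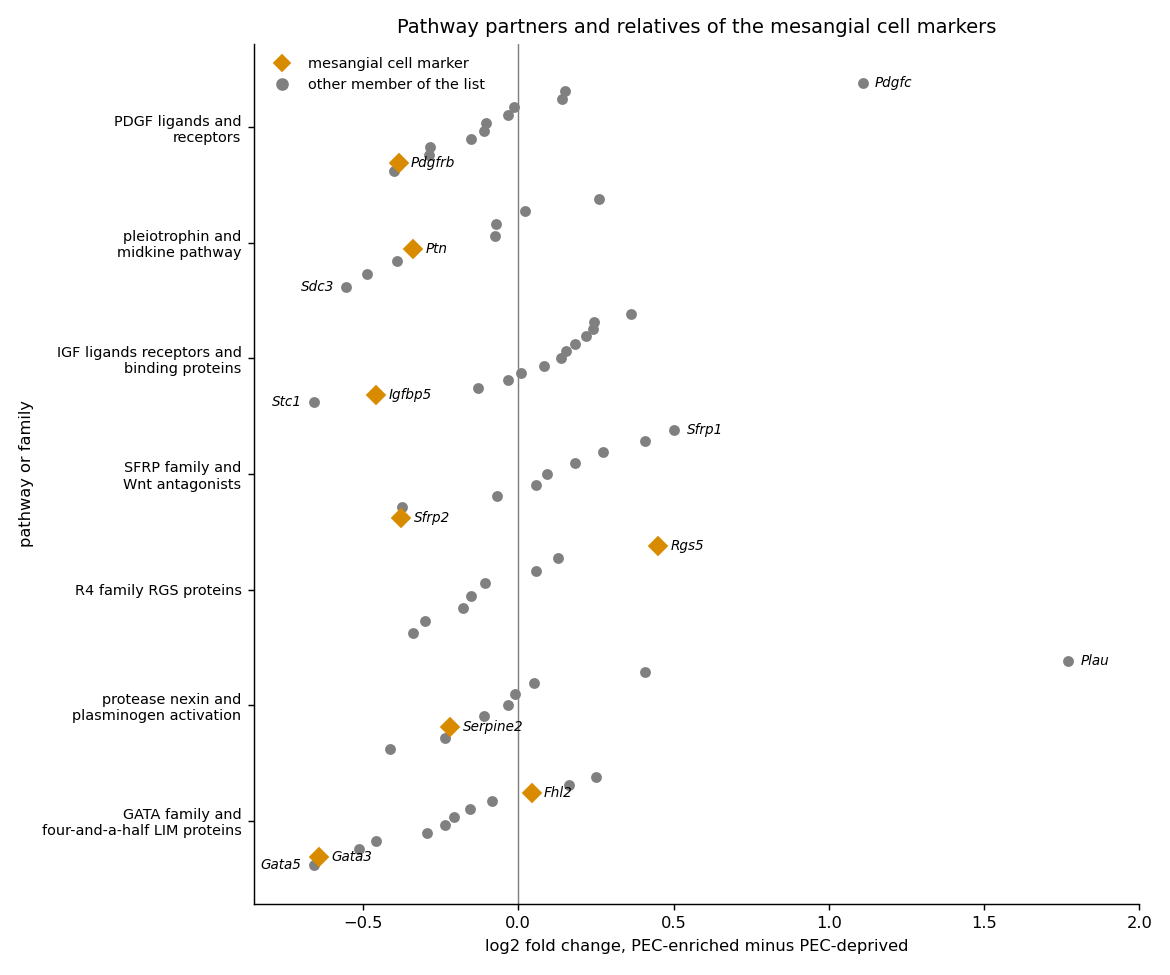
Log2 fold change (x axis, PEC-enriched minus PEC-deprived) of each measured gene of 7 pathways or families (y axis), with the mesangial cell markers as diamonds and the other genes as circles. Plau at 1.77 and Pdgfc at 1.11 lie farthest to the right, and Rgs5 lies to the right of every other gene of its family.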

How the data were processed

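Glomerular RNA was measured on 6 Affymetrix arrays (Rat GeneChip 1.0ST), 3 of PEC-enriched and 3 of PEC-deprived isolates, 1 array per preparation. Background adjustment, quantile normalization and probeset summary were done by the authors with RMA. For the software, a version is not given in the sources used here. Values were deposited as log2 expression, from 2.13 to 13.87. The labels name no base. It was taken as 2 because the study gives fold changes on that scale and because as natural logarithms the highest value would exceed what a 16-bit scanner can record.

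Of 29215 probesets 15310 carry 1 gene symbol, 323 several and 13582 none. Symbols follow GEO's platform annotation, brought to RefSeq symbols by Entrez ID (GRCr8, used for names and promoter windows only). A gene was its probeset with 1 symbol and the highest mean over 6 arrays. Differences were tested with limma 3.58.1 in R 4.3.3 (lmFit, eBayes, two-sided, no covariate, unpaired), after the methods of the study, which name a Bayesian form of the t-test and an adjusted p under 0.01. At that cut-off the study lists genes that differ between the isolates, among them Pdgfc, Plau, Myh11, Tagln, Anpep and Erg. In the limma fit used here 0 probesets passed, so the fit does not reproduce that list. The reason for the difference was not tested. Intervals are 95% intervals from the moderated fit and are not adjusted. The test was checked on simulated data. No arrays were identical. Figures were drawn with matplotlib 3.10.9.

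The markers and lists were chosen with earlier results of these data known. All 10 markers are named, and of the other lists at most the 2 genes with the largest absolute log2 fold change, the ligands, receptors and relatives of the markers, and the 3 genes nearest in profile to the 2 markers with the largest differences. The promoters shown were picked after the values were seen. With 3 animals given for 6 arrays, the sources do not say whether both isolates came from the same rats, and the replicate numbers do not show it, so p-values measure the spread between these arrays.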

Additional observations from a re-analysis of the deposited data

How the results depend on the processing

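Alternatives tried were cyclic loess, array weights, median centring, a trend with intensity, a block for the replicate number, a looser threshold (0.05), probesets limited to bright ones (above the median) or to those carrying 1 symbol, genes as means over their probesets, and leaving out each array in turn. In all of them 0 of the 10 markers passed in limma. With all arrays, 5 of 8 settings leave the log2 fold changes of the markers as reported by construction. Array weights, median centring and cyclic loess gave new ones, all 30 with the sign reported, and the median over the markers ran from -0.367 with median centring to -0.288 with array weights. With single arrays left out, 56 of 60 values kept their sign. Fhl2 ran from -0.1426 to 0.162 and Cspg4 from -0.1795 to 0.1569, the median from -0.5338 to -0.1479 and the number of markers with a higher mean from 1 to 3.

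With the replicate number as a block 2 markers had an unadjusted p under 0.05, Thy1 and Ptn, and 0 passed. Over the 8 settings this count was between 1 and 3 (1 in the reported fit), with Ptn in all 8, Rgs5 in 6, Igfbp5 in 2 and Thy1 in 1. The deviations of same-numbered arrays correlated at -0.0287, 0.0519 and 0.1 over all probesets, and those of different-numbered arrays between -0.135 and 0.0827. As these ranges overlap, the correlations cannot show whether any arrays share a rat. Over all probesets 0 passed in limma except without PEC-deprived replicate 1, where 1 did. In the reported fit 3048 had an unadjusted p under 0.05. Precision is limited by 3 arrays a group, and signal over background was not available.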
